A study of Mus musculus with 15 samples.

Results

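Steroid receptors and membrane progesterone receptors were examined in nuclei sorted from mouse hearts. The genes were chosen by symbol from the table of all genes, and 9 of its 55536 genes are described: the glucocorticoid receptor Nr3c1, the mineralocorticoid receptor Nr3c2, the oestrogen receptors Esr1 and Esr2, the membrane-associated progesterone receptor components Pgrmc1 and Pgrmc2, and the membrane progestin receptors Paqr7, Paqr8 and Paqr9. The progesterone receptor gene itself, Pgr, was used only to check the labels. RNA was prepared from Pcm1-positive nuclei of ventricular muscle, depleted of ribosomal RNA and sequenced in 15 libraries. Pcm1 is a centriolar satellite protein that marks cardiomyocyte nuclei. The libraries are labelled Pgr_KO female (n = 4), Pgr_KO male (n = 4), Pgr_WT female (n = 3) and Pgr_WT male (n = 4). How the allele was made, the strain and a stated age are not given in the sources used here, nor is it said whether replicates are separate animals, so the p-values measure only the spread between these libraries. The study addresses sex-specific control of heart maturation by the progesterone receptor.

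Steroid receptors such as Nr3c1, Nr3c2, Esr1 and Esr2 are transcription factors that bind a hormone, move to or act in the nucleus and bind DNA at hormone response elements. Nr3c1 and Nr3c2 bind related elements, and both bind corticosterone, the main glucocorticoid of mice. In the heart both are known for roles in cardiomyocyte function, and mineralocorticoid receptor blockers are used in heart failure. Membrane progestin receptors of the PAQR family are proteins with several membrane-spanning segments that respond to progesterone at the cell surface, and Pgrmc1 and Pgrmc2 are haem-binding proteins of intracellular membranes.

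Pgr reads ran against the genotype labels. They stood at 6.10 to 12.5 CPM in the 8 libraries labelled knockout, with at least 169 reads in each, and at 0 to 0.267 CPM in the 7 libraries labelled wild type, with at most 7 reads. CPM are counts per M counts of a library, with library sizes adjusted by edgeR's trimmed mean method (TMM). The groups are therefore named throughout as the libraries labelled knockout or wild type, and every direction between them follows these labels. Pcm1 was read at 134.6 to 238 CPM in all 15 libraries. Libraries held 24.4 to 139.4 M counts, median 49.9 M, so that 3 reads equal 0.0215 to 0.123 CPM. The 8 cardiomyocyte markers summed to 43677 to 74022 CPM. Markers of other cells split the libraries into 6 with a summed endothelial, fibroblast and mural level of 1605 to 3070 CPM and 9 with 671 to 911 CPM, here called the high-marker and low-marker libraries. The high-marker libraries are replicates 1 and 2 of the females and of the males labelled knockout, together with wild-type female 1 and wild-type male 1. Sex-linked transcripts of the other sex reached 3.07 to 3.50% of that sex's mean level in 3 libraries, labelled knockout female 2, wild-type female 2 and wild-type male 2, and 0.0216 to 0.254% in the others.

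Counts cover whole gene bodies, introns included, and levels of different genes are compared only per kilobase of gene. All 9 genes lie at the positions of the GENCODE annotation on GRCm38. Nr3c2 (chromosome 8, 76899442 to 77245012, plus strand) spans 345.571 kb, of which 1.87% is exon. Esr1 (chromosome 10, 4611593 to 5005614, plus strand) is the longest at 394.022 kb, with 3.47% exon. Exons cover 7.06% of Nr3c1. Esr2 (chromosome 12, 76120419 to 76177259, minus strand) is 5.93% exon and Paqr8 (chromosome 1, 20890606 to 20939650, plus strand) 11.2%. Pgrmc2 (chromosome 3, 41066326 to 41083046, minus strand), Pgrmc1 (chromosome X, 36598206 to 36606079, plus strand) and Paqr7 (chromosome 4, 134496697 to 134510235, plus strand) are 19.4%, 23.6% and 31.5% exon. Paqr9 (chromosome 9, 95559657 to 95568023, plus strand) is annotated as exon over 100% of its 8.367 kb, so its level per kb holds no intron. Nr3c2 overlaps Gm10649 and Gm24838 on the opposite strand, whose reads came to 13209, or 1.62% of the Nr3c2 reads. Genes overlapping Esr2 and Paqr8 had 0 reads.

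Windows from 250 bases before to 50 bases after an annotated start, from RefSeq on GRCm38.p6, were found for 7 of the 9 genes, 10 windows in all. Nr3c1 and Paqr9 had no entry. Nr3c2, Esr1 and Paqr8 are printed because their levels set the high-marker and low-marker libraries apart without overlap, Nr3c2 in 1 direction and Esr1 and Paqr8 in the other. Capitals mark matches, on either strand, to TGTTCT (the half-site of glucocorticoid and mineralocorticoid response elements), AGGTCA (the oestrogen response half-site) and GGGCGG (the GC box bound by Sp factors).
Nr3c2, chr8:76902080-76902379, plus strand: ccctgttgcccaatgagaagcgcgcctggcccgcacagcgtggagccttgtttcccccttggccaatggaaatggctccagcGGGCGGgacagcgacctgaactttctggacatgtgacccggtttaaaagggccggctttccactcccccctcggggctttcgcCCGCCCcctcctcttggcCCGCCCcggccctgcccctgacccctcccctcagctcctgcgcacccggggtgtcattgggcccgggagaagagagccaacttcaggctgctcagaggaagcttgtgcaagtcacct
Esr1, the window nearest the 5′ end, chr10:4611739-4612038, plus strand: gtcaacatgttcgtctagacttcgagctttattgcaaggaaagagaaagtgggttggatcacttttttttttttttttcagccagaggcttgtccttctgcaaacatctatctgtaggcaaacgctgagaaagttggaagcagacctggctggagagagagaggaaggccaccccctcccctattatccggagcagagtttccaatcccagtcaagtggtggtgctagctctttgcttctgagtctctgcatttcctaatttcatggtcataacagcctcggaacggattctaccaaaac
Paqr8, the window nearest the 5′ end, chr1:20890298-20890597, plus strand: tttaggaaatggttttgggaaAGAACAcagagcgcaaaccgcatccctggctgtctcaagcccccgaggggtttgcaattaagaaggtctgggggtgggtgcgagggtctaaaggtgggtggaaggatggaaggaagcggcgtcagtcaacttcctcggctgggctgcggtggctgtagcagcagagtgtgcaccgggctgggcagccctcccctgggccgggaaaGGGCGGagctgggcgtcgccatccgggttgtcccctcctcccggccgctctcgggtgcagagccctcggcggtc
The Nr3c2 window held 3 GC boxes and neither half-site, and 65.7% of its bases were G or C. The Esr1 window held none of the 3 motifs at 46.3% G or C. The Paqr8 window held 1 TGTTCT match and 1 GC box at 64.3% G or C. Matches do not overlap one another in these windows. Over the 10 windows, TGTTCT was found in 3, AGGTCA in 1 and GGGCGG in 6, while 19%, 16.3% and 35.7% of all 32851 windows in the same table hold them. A match is a string of letters and was not tested as a binding site.

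Per length, Paqr9, Nr3c1 and Nr3c2 stood highest among these receptors, at 4.22 ± 1.101, 2.82 ± 0.555 and 2.79 ± 0.330 CPM per kb (SD, n = 15 for each level over all libraries). Pgrmc2, Pgrmc1 and Paqr7 followed at 0.934 ± 0.121, 0.630 ± 0.233 and 0.584 ± 0.135 CPM per kb. Paqr8, Esr1 and Esr2 stood lowest, at 0.0257 ± 0.0174, 0.00940 ± 0.00708 and 0.00270 ± 0.00136 CPM per kb. Set against the 17455 genes that passed the filter on low counts, 95.8%, 92.7% and 92.6% lay below Paqr9, Nr3c1 and Nr3c2 per kb. The shares below the middle tier were 70.1% for Pgrmc2, 59.5% for Pgrmc1 and 57.3% for Paqr7. Only 15.3%, 8.02% and 2.67% of the tested genes lay below Paqr8, Esr1 and Esr2. Exon covers 100% of Paqr9, but 7.06% of Nr3c1 and 1.87% of Nr3c2. Levels per kb thus hold exon and intron in unlike parts, and the effect of this on the order was not tested. By CPM without length, 77.5% of the tested genes lay below Paqr9, against 97.2% below Nr3c1 and 99.3% below Nr3c2.

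The tiers did not overlap between Nr3c2 and Pgrmc2 or between Paqr7 and Paqr8, whose ranges over the libraries were apart. Within tiers, some neighbours could not be ordered. Paqr9 was above Nr3c1 in 15 of 15 libraries, but Nr3c1 was above Nr3c2 in only 8 of 15. Pgrmc2 was above Pgrmc1 in 14 of 15 and Pgrmc1 above Paqr7 in 9 of 15, so the order of Pgrmc1 and Paqr7 rests within their spread. Paqr8 was above Esr1 in 15 of 15 libraries and Esr1 above Esr2 in 14 of 15.

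**Figure D1:**
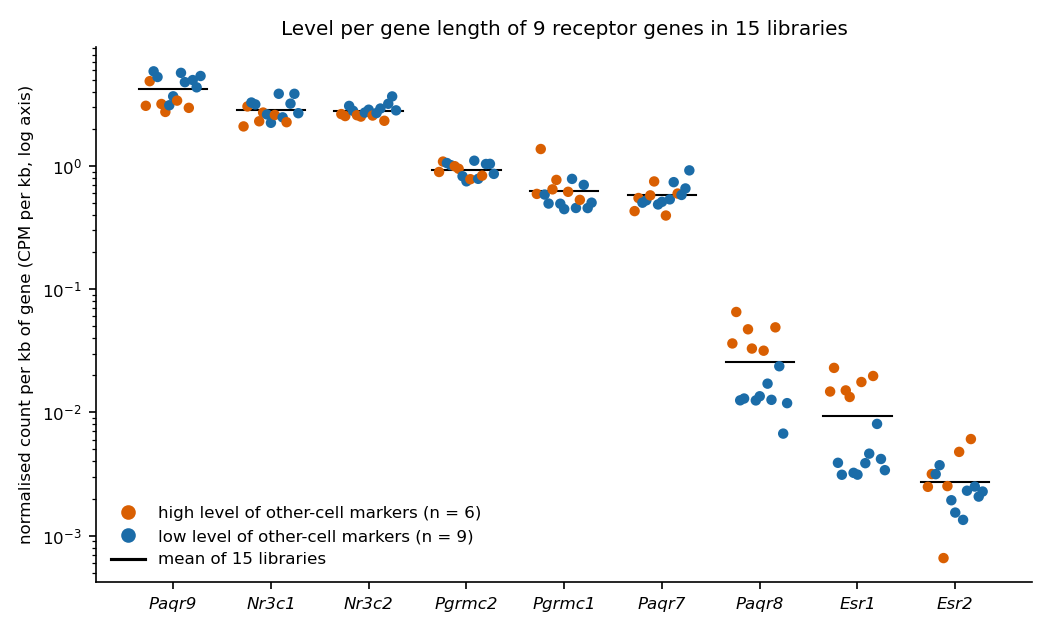
Normalised count per kilobase of gene (CPM per kb, log axis) of the 9 receptor genes in 15 libraries. Each point is a library, coloured by high (n = 6) or low (n = 9) level of endothelial, fibroblast and mural markers, and lines are means over 15 libraries. The genes fall into 3 tiers, and the high-marker libraries lie above all others for Paqr8 and Esr1.

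Nr3c2 alone supplied a median of 72.2% of the CPM summed over the 9 genes (64.9 to 76.7%), and Nr3c1 a median of 22.8% (18.9 to 29.3%). This share counts reads, not molecules, and follows gene length. Within libraries Nr3c2 had 2.21 to 4.05 times the reads of Nr3c1, but 0.698 to 1.28 times per kb, with a median of 0.998 and 7 of 15 libraries above 1. Both corticosteroid receptors thus had like numbers of reads per kb of gene in these libraries. The ratio per kb of Nr3c2 to Nr3c1 averaged 0.980 ± 0.191 (SD, n = 4) in females labelled knockout and 0.955 ± 0.243 (n = 3) in females labelled wild type. Male libraries labelled knockout averaged 1.09 ± 0.148 (n = 4), and those labelled wild type 1.01 ± 0.0437 (n = 4).

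Nr3c2, which binds aldosterone and corticosterone, varied least of the 9 genes between libraries, with a coefficient of variation of 11.8% over the 15 libraries, against 13.0% for Pgrmc2 as the next and 75.2% for Esr1 as the highest. In females it was read at 910.4, 877, 1060.2 and 968 CPM in the libraries labelled knockout, against 886, 928 and 1009.7 CPM in those labelled wild type. In males the 4 libraries labelled knockout held 891, 869, 936 and 988 CPM, against 803, 1104, 1266 and 976 CPM in those labelled wild type. The lowest and the highest library both carried the wild-type male label, and the groups overlapped in each sex. The knockout-minus-wild-type log2 fold change was 0.02 (95% interval -0.28 to 0.32) in females and -0.17 (-0.45 to 0.11) in males by edgeR, with adjusted p-values of 1 and 0.999.

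Nr3c1 (chromosome 18, 39410545 to 39519421, minus strand), the receptor for corticosterone in most cells, varied more, with a coefficient of variation of 19.7%. Its levels in females were 228, 331, 356 and 344 CPM under the knockout label, against 282, 419 and 269.8 CPM under the wild-type label. In males they were 251, 295, 285 and 244 CPM under the knockout label, against 246, 349, 419 and 292 CPM under the wild-type label. The 4 male libraries labelled knockout lay between 244 and 295 CPM, within the range of the males labelled wild type but for their lowest value. Means were 269 ± 25.2 CPM in the males labelled knockout and 326 ± 74.5 CPM in the males labelled wild type, a log2 fold change of -0.28 (95% interval -0.69 to 0.13; edgeR adjusted p = 0.999). In females they were 315 ± 58.8 and 324 ± 82.9 CPM, a log2 fold change of -0.04 (-0.49 to 0.40; edgeR adjusted p = 1).

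The oestrogen receptors were at the bottom of the range. Esr1, which encodes oestrogen receptor alpha, was read at 5.82, 9.05, 1.54 and 1.23 CPM in females labelled knockout, against 6.95, 1.53 and 1.82 CPM in females labelled wild type. In males it was read at 5.94, 5.25, 1.27 and 1.23 CPM under the knockout label, against 7.78, 3.18, 1.65 and 1.34 CPM under the wild-type label. Each group thus held a high and a low set of libraries, and the high set was the same as the high-marker libraries. With that spread the knockout-minus-wild-type log2 fold change of Esr1 was 0.37 (95% interval -1.57 to 2.31) in females and -0.04 (-1.81 to 1.74) in males (edgeR adjusted p = 1 and 0.999). With marker level as a covariate it was -0.12 ± 0.276 (SE) in females and -0.55 ± 0.250 in males, where the unadjusted p was 0.0431 and the adjusted p 0.963 by edgeR. In the low-marker libraries alone it was -0.29 ± 0.404 in females and -0.71 ± 0.359 in males (edgeR adjusted p = 1 and 0.690).

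Esr2, which encodes oestrogen receptor beta, had 128 reads in all 15 libraries together, between 1 and 23 in each. It passed the filter on low counts, but the table that the authors filtered holds the other 8 genes and not Esr2. Pooled reads came to 35 in females labelled knockout against 16 in females labelled wild type, a ratio of 1.17 per read sequenced (95% exact Poisson interval 0.630 to 2.26, counting error only). In males they were 31 against 46, a ratio of 0.540 (0.331 to 0.870), which lies below 1 by counting error alone. Of those 46 reads, 23 came from wild-type male replicate 1. The edgeR log2 fold change in males, which takes in the spread between libraries, was -0.89 (95% interval -1.92 to 0.15; adjusted p = 0.999).

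Pgrmc2 was above Pgrmc1 per kb in 14 of 15 libraries, at 0.791 to 2.28 times its level. Pgrmc2, a haem-binding relative of Pgrmc1, was read at 14.9, 18.1, 17.6 and 17.0 CPM in females labelled knockout, against 13.0, 18.4 and 13.1 CPM in females labelled wild type. In males it was read at 16.6, 15.9, 13.8 and 12.5 CPM under the knockout label, against 13.9, 17.3, 17.4 and 14.4 CPM under the wild-type label. Its values overlapped between the labels in both sexes, with log2 fold changes of 0.19 (95% interval -0.14 to 0.51) in females and -0.10 (-0.40 to 0.20) in males by edgeR.

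Pgrmc1, an X-linked gene whose protein binds haem and cytochrome P450 enzymes, stood at 4.67, 10.8, 4.61 and 3.90 CPM in females labelled knockout, against 4.85, 6.18 and 3.59 CPM in females labelled wild type. In males it stood at 5.08, 6.06, 3.88 and 3.51 CPM under the knockout label, against 4.17, 5.52, 3.58 and 3.96 CPM under the wild-type label. The 10.8 CPM of knockout-labelled female replicate 2 lay far above the other 14 libraries, which reached 6.18 CPM at most. That library also had the highest summed level of endothelial, fibroblast and mural markers, 3070 CPM, and Y-linked transcripts at 3.07% of the male mean. It was the 1 library in which Pgrmc1 was above Pgrmc2 per kb. Females minus males, its log2 fold change was 0.37 (95% interval -0.29 to 1.03) among libraries labelled knockout, and among those labelled wild type it was 0.18 (-0.54 to 0.89). Without knockout-labelled female replicate 2 the value under the knockout label was -0.08.

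The 3 membrane progestin receptors spanned the whole range of levels. Per kb, Paqr9 was at 3.67 to 11.6 times the level of Paqr7 and at 60.4 to 645 times that of Paqr8 within the same library. The ratio to Paqr8 was 60.4 to 107 in high-marker libraries and 210 to 645 in low-marker ones. Exon covers 100% of Paqr9, 31.5% of Paqr7 and 11.2% of Paqr8, so these ratios do not compare like parts of a gene. Paqr7, known as membrane progestin receptor alpha, had 5.82, 7.43, 6.81 and 7.12 CPM in females labelled knockout, against 5.36, 7.25 and 9.997 CPM in females labelled wild type. In males it had 7.81, 10.1, 6.59 and 6.92 CPM under the knockout label, against 8.08, 7.87, 8.89 and 12.5 CPM under the wild-type label. Of the 4 males labelled knockout, 3 lay below all 4 males labelled wild type, and the log2 fold change was -0.25 (95% interval -0.69 to 0.20; edgeR adjusted p = 0.999).

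Paqr8, known as membrane progestin receptor beta, had the same split of libraries as Esr1. It was read at 1.78, 3.20, 0.614 and 0.636 CPM in females labelled knockout, against 1.55, 0.839 and 0.620 CPM in females labelled wild type. In males it was read at 2.32, 1.62, 0.613 and 0.663 CPM under the knockout label, against 2.40, 1.16, 0.330 and 0.583 CPM under the wild-type label. The log2 fold change between the labels was 0.65 (95% interval -0.96 to 2.26) in females and 0.20 (-1.26 to 1.65) in males by edgeR, and in the low-marker libraries alone it was -0.20 and -0.10.

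Paqr9, known as membrane progestin receptor epsilon, showed the smallest unadjusted p of the 9 genes. It was read at 25.7, 40.8, 49.0 and 44.1 CPM in females labelled knockout, against 26.6, 22.9, 26.0 and 30.7 CPM in males labelled knockout. Under the wild-type label it was read at 28.3, 47.6 and 40.0 CPM in females, against 24.8, 41.6, 36.3 and 44.9 CPM in males. Under the knockout label 3 of 4 female libraries lay above all 4 male ones, and under the wild-type label the sexes overlapped. The 4 males labelled knockout were also the group with the narrowest spread, 26.6 ± 3.20 CPM, against 39.9 ± 10.03 CPM in females with that label and 36.9 ± 8.83 CPM in males labelled wild type.

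**Figure D2:**
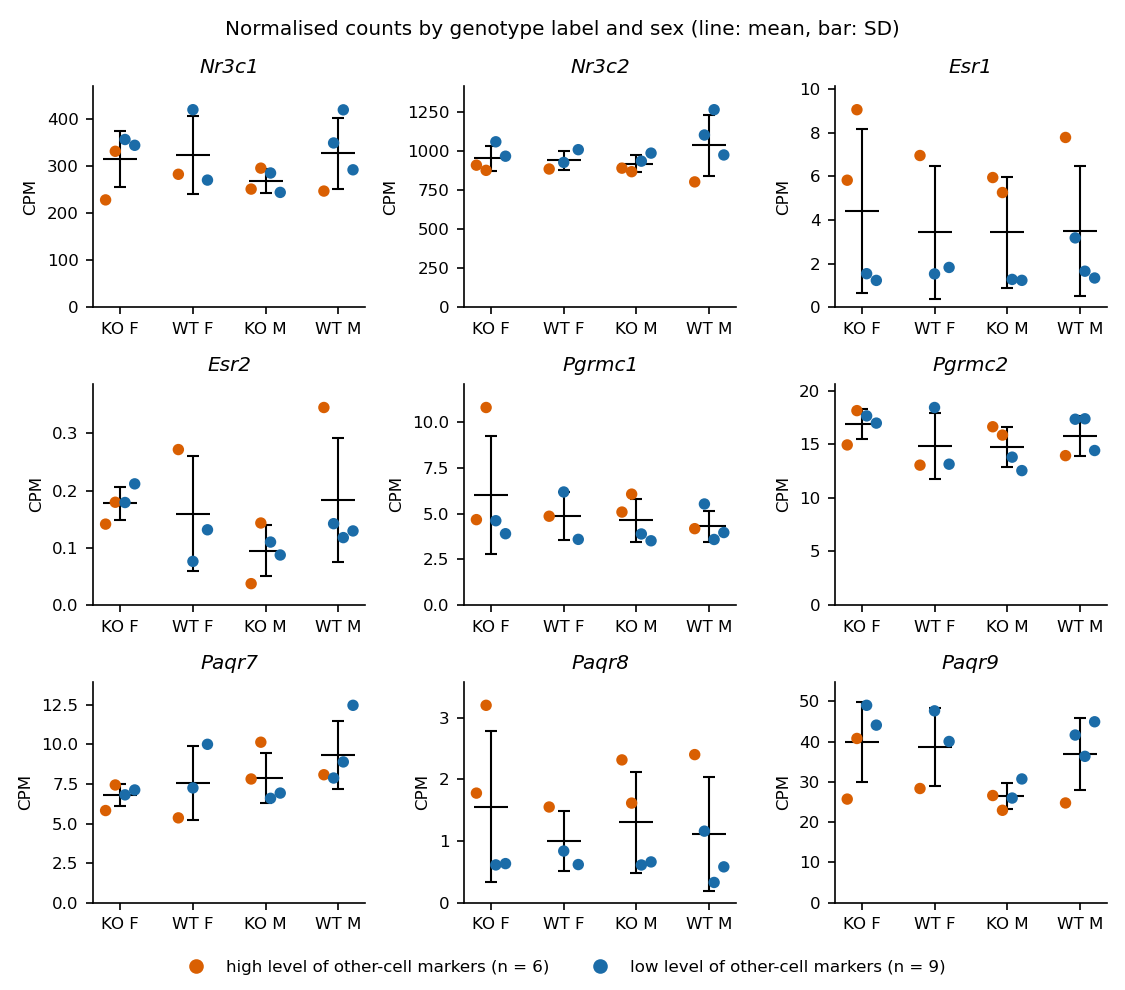
Normalised counts (CPM, linear axes from 0) of each receptor gene by sex and genotype label: libraries labelled KO female (n = 4), WT female (n = 3), KO male (n = 4) and WT male (n = 4). Points are libraries coloured by marker level, lines are means and bars are SD. For Esr1 and Paqr8 each group splits by marker level, and the 4 KO male libraries of Paqr9 lie between 22.9 and 30.7 CPM.

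None of the 9 genes passed the test in any comparison (edgeR quasi-likelihood test, Benjamini-Hochberg adjusted p below 0.05 over 17455 genes). In females, the labels knockout and wild type differed in 0 of 9 receptors, and 0% of all tested genes were called. In males they differed in 0 of 9, with 0.0115% of all genes called. Females and males labelled knockout differed in 0 of 9, with 0.0229% of all genes called, and those labelled wild type in 0 of 9, with 0% called. The difference between the label effects of the sexes was called for 0 of 9 receptors and 0% of all genes. With DESeq2, 0 of 9 receptors were called in each comparison, where 0.0172% of all genes were called between the labels in females, 0.0229% in males, 0.327% and 0.0802% between the sexes labelled knockout and wild type, and 0.00573% for the difference between the label effects. With limma-voom the count was 0 of 9 as well, against 0.00573%, 0.0115%, 0.0573%, 0.0344% and 0% of all genes in the same order. Counts of 0 between the sexes say little about single genes here, since edgeR called few of the sex-linked genes that were looked at, Xist and 4 Y-linked genes. It called 1 of 5 among the libraries labelled knockout and 0 of 5 among those labelled wild type. Xist averaged 1532 ± 398 CPM in females labelled wild type and 14.6 ± 26.4 CPM in males labelled wild type, and its adjusted p was 0.396 by edgeR. Without the 3 libraries that held transcripts of the other sex, 5 of 5 were called under each label. At an unadjusted p below 0.05, 0 of 9 passed between the labels in females and in males, where 1.74% and 1.42% of all genes did. The count in males moved with the model. It was 1 of 9 with the replicate number as a block (Paqr9), where 3.62% of all genes passed, and 1 of 9 with DESeq2 (Paqr9), where 2.26% did. It was 2 of 9 with the marker covariate (Esr1 and Esr2), where 3.25% passed, 2 of 9 with 1 surrogate variable (Esr1 and Paqr9), where 3.1% passed, and 2 of 8 in the low-marker libraries alone (Paqr7 and Paqr9), where 6.35% passed. With limma-voom it was 0 of 9, where 1.75% passed. Between the sexes 1 of 9 passed among libraries labelled knockout, where 6.37% of all genes did, and 0 of 9 among those labelled wild type, where 2.09% did. For the difference between the label effects 0 of 9 passed, against 2.49% of all genes. No receptor had groups that did not overlap in any pairwise comparison, where 1.92%, 1.6%, 3.18% and 2.95% of all tested genes did, in the same order.

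Paqr9 was the 1 receptor with an unadjusted p below 0.05 in the model of group means. Its female-minus-male log2 fold change under the knockout label was 0.59 ± 0.22 (SE; 95% interval 0.11 to 1.06), with an unadjusted p of 0.0199 and an adjusted p of 0.757 by edgeR. Under the wild-type label it was 0.07 ± 0.24 (-0.45 to 0.58). Knockout minus wild type, it was 0.04 ± 0.24 (-0.47 to 0.56) in females and -0.47 ± 0.22 (-0.95 to 0.00379) in males, where the unadjusted p was 0.0516 and the adjusted p 0.999 by edgeR. With the replicate number as a block the value in males was -0.43 ± 0.16, with an unadjusted p of 0.0171 and an adjusted p of 0.918 by edgeR. The label effects of the sexes differed by 0.52 ± 0.33 (-0.19 to 1.22; edgeR adjusted p = 0.9999). The sex difference under the knockout label, the label difference in males and the difference between label effects share the male libraries labelled knockout. High-marker libraries held 22.9 to 40.8 CPM of Paqr9 and low-marker ones 26.0 to 49.0 CPM, and with marker level as a covariate the female-minus-male value under the knockout label was 0.60 (edgeR adjusted p = 0.425).

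**Figure D3:**
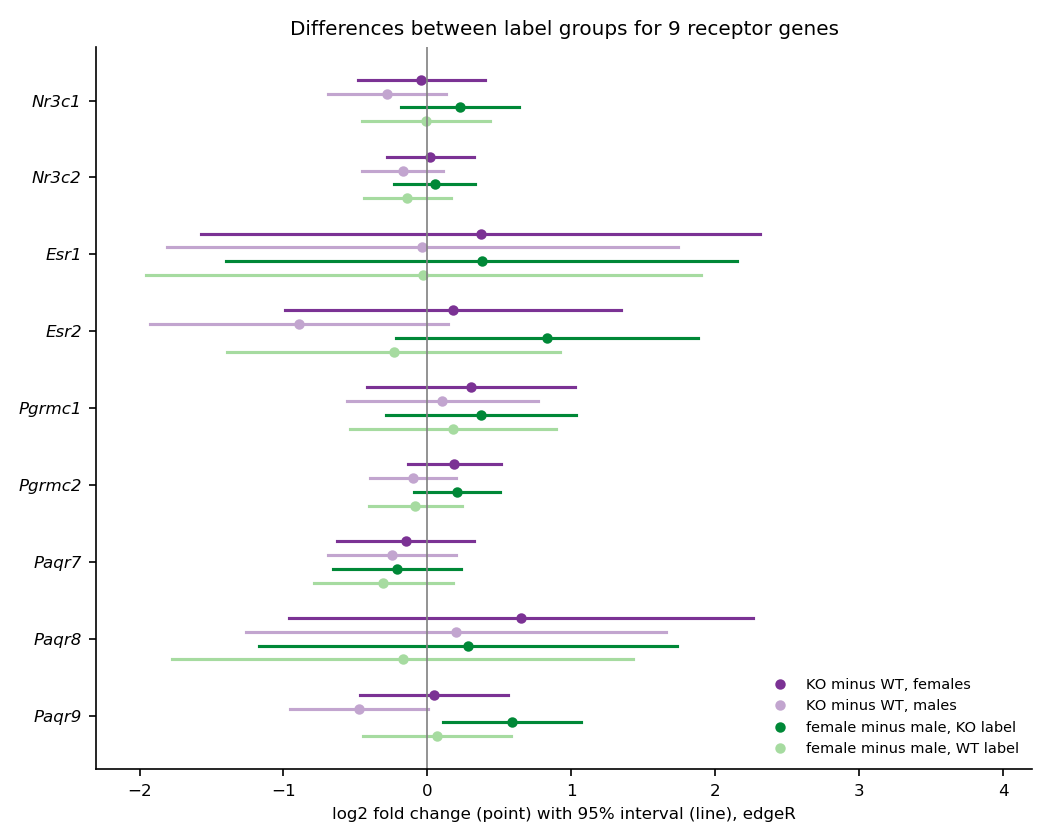
Log2 fold changes (points) with 95% intervals (lines) from edgeR for the 9 receptor genes in 4 comparisons between label groups. The interval excludes 0 only for Paqr9 between females and males labelled KO, at 0.11 to 1.06, and it is widest for Esr1, Paqr8 and Esr2.

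The widths of the intervals differed between receptors and with the model. For Nr3c2 they reached from 0.822 to 1.25-fold for knockout over wild type in females and from 0.732 to 1.08-fold in males, and for Nr3c1 from 0.714 to 1.32-fold and from 0.619 to 1.09-fold. Those of Esr1 reached from 0.337 to 4.96-fold and from 0.285 to 3.34-fold, and those of Paqr8 from 0.513 to 4.80-fold and from 0.418 to 3.15-fold. The spread behind these wide intervals was smaller with marker level as a covariate. The SE of the log2 fold change of Esr1 was then 0.276 in females and 0.250 in males, against 0.896 and 0.820 without the covariate. That of Paqr8 was 0.360 and 0.310, against 0.750 and 0.678. A p-value above the threshold does not show that the receptors were at the same level in the groups compared.

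For 3 of the 9 receptors the high-marker and low-marker libraries did not overlap. Esr1 stood at 5.25 to 9.05 CPM in the 6 high-marker libraries, against 1.23 to 3.18 CPM in the 9 low-marker ones, and the ratio of means was 4.14. Paqr8 stood at 1.55 to 3.20 CPM, against 0.330 to 1.16 CPM, a ratio of 3.19. Every high-marker library was above every low-marker one for these 2 of 9 genes, as it was for 13.6% of all tested genes. Nr3c2 stood at 803 to 910.4 CPM in the high-marker libraries, against 928 to 1266 CPM in the low-marker ones, a ratio of 0.851. Every high-marker library was below every low-marker one for this 1 of 9 genes, as for 1.08% of all tested genes. The classes were drawn from these libraries, so these values are a description with no test.

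The other 6 receptors overlapped between the classes. Ratios of means, high-marker over low-marker, were 1.42 for Esr2, 1.38 for Pgrmc1, 0.980 for Pgrmc2, 0.906 for Paqr7, 0.823 for Nr3c1 and 0.704 for Paqr9. Beside these values, the 8 endothelial markers summed to 256 to 460 CPM in high-marker libraries, against 18.2 to 62.1 CPM in low-marker ones, and the 8 fibroblast markers to 737 to 1964 CPM, against 59.5 to 256 CPM. All 8 markers of each of these lists had ranges that were apart. Leukocyte markers summed to 47.2 to 115 CPM, against 8.58 to 37.0 CPM, with 5 of 8 ranges apart. The summed mural markers overlapped at 548 to 659 CPM, against 581 to 776 CPM. Even so, 5 of the 8 mural markers were higher in every high-marker library, and the rest had no higher mean there. Mural markers made up most of the summed level in every low-marker library, from 593 of 911 CPM in wild-type male replicate 2 to 776 of 854 CPM in wild-type male replicate 3. Cardiomyocyte markers overlapped too, at 43677 to 70021 CPM, against 57280 to 74022 CPM. No marker of any list was at 0 in any library. In such bulk samples fewer nuclei of a type and less RNA per nucleus cannot be told apart, and the part of other cells in the levels of Esr1, Paqr8 and Nr3c2 was not tested.

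Wild-type male replicate 2 had the highest marker level of the low-marker libraries, 911 CPM, and also the highest Esr1 and Paqr8 of them, 3.18 and 1.16 CPM. Esr1 and Paqr8 were still read in every low-marker library, with at least 40 and at least 14 reads. Their lowest levels, 1.23 and 0.330 CPM, lie above the 0.123 CPM that 3 reads equal in the shallowest library.

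**Figure D4:**
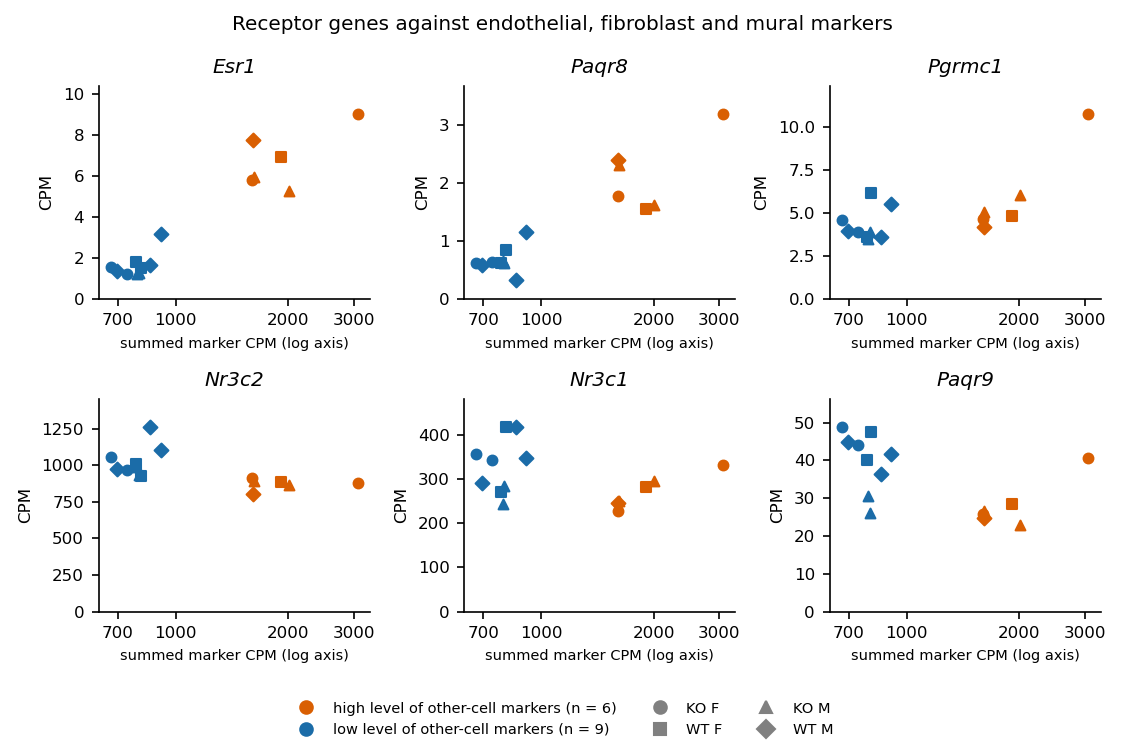
CPM of 6 receptor genes (linear axes from 0) against the summed CPM of endothelial, fibroblast and mural markers (log axis) in 15 libraries. Colour gives the marker class and shape the label group. Esr1 and Paqr8 are higher in the 6 libraries above 1605 CPM of markers, Nr3c2 is lower in them, and Pgrmc1, Nr3c1 and Paqr9 overlap.

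Likeness of expression patterns was measured as Pearson's r of log2 CPM over 15 libraries, after taking out the mean of each marker class. It is given as a description over libraries that differ in depth. The neighbours were picked for the highest r among the tested genes, and the r that chance would give was not worked out. Nr3c1 was most like Krit1 (r = 0.968) and Fam208b (0.964), and Pgrmc2 most like Hook1 (0.972) and Akirin2 (0.969). Pgrmc1 followed Prdx4 (0.959) and Ifngr1 (0.945), and Paqr9 followed Plpp6 (0.928) and Abcd3 (0.921). The neighbours of Nr3c2, Tubgcp4 (0.833) and Slc6a20a (0.826), and of Paqr7, Ddr1 (0.842) and Tmem43 (0.834), were less close. Esr1 was most like Megf6 (0.912) and Adgrg2 (0.911) and Paqr8 most like Nr1h4 (0.934) and Lhx6 (0.900). Esr2, at 1 to 23 reads a library, was most like Tshr (0.923) and Vstm2b (0.866). These 18 neighbours were 18 different genes.

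Enzymes that set the hormone reaching a receptor were mostly near 0. Hsd11b2, which inactivates corticosterone and so keeps it from the mineralocorticoid receptor in kidney, had 5 reads in all 15 libraries. Hsd11b1, which regenerates corticosterone, was read at 1.65 ± 0.811 CPM, with 1.64 to 3.38 CPM in high-marker libraries and 0.589 to 1.78 CPM in low-marker ones. H6pd, which supplies the cofactor of Hsd11b1, was read at 45.1 ± 5.83 CPM. The aldosterone and corticosterone synthases Cyp11b2 and Cyp11b1 and the 21-hydroxylase Cyp21a1 had 0 reads, and aromatase, Cyp19a1, had 8. Of the 30 listed genes of steroid synthesis, transport and metabolism 28 were in the table and 15 were tested, and 0 were called in any comparison. In males the smallest p between the labels was that of Hsd17b7 (log2 fold change -0.67 ± 0.29, unadjusted p = 0.0370, adjusted p = 0.999 by edgeR).

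Among relatives of the membrane receptors, those named here ranged from a few reads to 1.19 CPM per kb. Paqr5, Paqr6 and the G protein-coupled oestrogen receptor Gper1 had 25, 67 and 70 reads in all. Adipor1 and Adipor2, adiponectin receptors of the PAQR family, stood at 21.3 ± 1.39 and 45.2 ± 3.33 CPM, or 1.19 and 0.701 CPM per kb. Of 12 listed relatives 8 were tested and 0 were called. Adipor2 had the smallest p between the labels in females (log2 fold change 0.22 ± 0.09, unadjusted p = 0.0279, edgeR adjusted p = 1). Mmd, another PAQR gene, had the smallest p between the sexes under the wild-type label (0.36 ± 0.14, unadjusted p = 0.0188, edgeR adjusted p = 0.9999) and Cyb5d2, which encodes neuferricin, under the knockout label (-0.25 ± 0.10, unadjusted p = 0.0351, edgeR adjusted p = 0.757). Of 4 other steroid-type nuclear receptors 4 were tested and 0 called. Esrrg, an oestrogen-related receptor that binds no oestrogen and drives mitochondrial genes, was read at 2002 ± 240 CPM and at 3.30 CPM per kb, next to Nr3c1 and Nr3c2. Like Nr3c2, it was lower in every high-marker library, at 1654 to 1920 CPM against 1977 to 2589 CPM.

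Steroid receptors are held ready for hormone by Hsp90 and its partners. All 17 listed chaperones and cochaperones were tested and 0 were called, with median log2 fold changes of -0.21 for knockout minus wild type in females and -0.18 in males, against medians of 0.03 and 0.02 over all tested genes. In females 3 of the 17 were positive and 14 negative, but in males the signs were near even, 8 positive and 9 negative. Of all tested genes 55.4% and 53.0% were positive. Hspa8 had the smallest p between the sexes under the knockout label (log2 fold change -0.67 ± 0.27, unadjusted p = 0.0267, edgeR adjusted p = 0.757). In wild-type male replicate 3, 9 of the 17 genes were at their highest of 15 libraries. Knockout-labelled male replicate 4 held 40.2 CPM of Hsp90aa1 and 55.3 CPM of Dnaja1, and wild-type male replicate 3 held 87.9 and 171.6 CPM, while the other 13 libraries reached at most 17.9 and 33.8 CPM. Wild-type male replicate 3 also held the highest Nr3c2, 1266 CPM, and the lowest Paqr8, 0.330 CPM. Hsp90aa1 and Dnaja1 were picked here after their values were seen, and the part of these libraries in the receptor levels was not tested.

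Of the coactivators and corepressors that receptors recruit, 20 of 20 were tested and 0 were called. Ncoa1, Ncoa2 and Ncoa3, the p160 coactivators, stood at 307 ± 45.2, 331 ± 20.1 and 91.3 ± 11.7 CPM, and the corepressor Ncor1 at 363 ± 49.3 CPM. Tbl1xr1, a subunit of corepressor complexes, had the smallest p between the labels in males (log2 fold change -0.35 ± 0.16, unadjusted p = 0.0476, edgeR adjusted p = 0.999). Its values averaged 230.3 ± 31.1 CPM in males labelled knockout and 293 ± 42.0 CPM in males labelled wild type. Over all the pathway lists 64 genes were tested, and 4 of them were above the low-marker range in every high-marker library, or 6.25% against 13.6% of all genes.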

How the data were processed

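Each library is RNA from sorted Pcm1-positive nuclei, with a directional kit after ribosomal depletion, per the labels' protocols. STAR 2.5.3a, featureCounts 1.5.0 and GRCm38 (mm10) are named in the submitters' processing notes. The authors deposited raw read counts per gene without normalisation, in a table of 55536 genes and a filtered table of 16610 with identical counts and a mean of at least 10. The length of each gene equals its span in 100% of genes, so counts include introns. The larger table was used, and 0 columns lacked a sample.

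Counts were scaled by TMM in edgeR 4.0.16 (R 4.3.3), and filterByExpr kept 17455 genes, all 9 receptors included, so the test planned for receptors under the filter did not apply. The model (glmQLFit, robust) used all 15 libraries with a mean for each group, leaving 11 residual degrees of freedom, and p-values were adjusted by Benjamini-Hochberg over all tested genes, with a threshold of 0.05. CPM are counts per M counts on TMM library sizes, and CPM per kb divide them by gene length. Intervals cover 95%, and those of pooled reads and the 3-read floor cover counting error only, since reads carry no molecular identifiers. Markers of other cells, 8 per type, divided the libraries at the widest gap of their log2 summed CPM. Alternatives were DESeq2 1.42.0, limma-voom (limma 3.58.1), 1 surrogate variable (sva 3.50.0), other scaling, no filter, a marker covariate, subsets of libraries and a replicate block. The edgeR steps were tested on simulated data with less spread between libraries than these data, whose common dispersion was 0.163, and without marker classes. That test does not show what the steps can detect at the real spread.

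The receptors, the marker and pathway lists and the rule for named genes were chosen with earlier results of these data known. The rule names all 9 receptors, Pgr and Pcm1, from each pathway list the called genes or else the up to 2 with the smallest p in a comparison, and for each receptor the 2 tested genes with the highest r, predicted names left out. Other genes are named for their level or role. The listed Hsd17b8 and Sts were not matched in the table. No protein sequence was used here. Results of some listed genes are not reported here.

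No label says that a replicate number marks an animal, litter or day. Deviations from group means of same-numbered libraries correlated at 0.139 to 0.734 between the male groups, 0.511 to 0.857 between the sexes labelled knockout and 0.306 to 0.885 between the sexes labelled wild type, which counted as paired, and at 0.749, -0.382 and 0.608 between the female groups, which did not. Libraries of a group differed from one another by more than sampling noise, with a chi-square per degree of freedom of at least 29.1.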

Additional observations from a re-analysis of the deposited data

Results flagged for a closer look

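Of 27 sets of 4 libraries, 9 receptors in each of 3 groups, 2 held a library far from the other 3, where chance gives about 1 in 20. Pgrmc1 stood at 10.8 CPM in knockout-labelled female replicate 2, and the nearest of the other 3 was at 4.67 CPM, so that the gap made up 0.888 of the range. Esr2 stood at 0.345 CPM, or 23 reads, in wild-type male replicate 1, against 0.142 CPM in the nearest, a gap of 0.893 of the range. Both are high-marker libraries. The group of 3 wild-type females was not examined in this way.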

How the results depend on the processing

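No receptor that was tested was called in any of the 5 comparisons under the 24 other settings, in some of which Esr2 fell under the filter, and the lowest adjusted p was 0.213 (Paqr9, female minus male under the knockout label, without knockout-labelled female replicate 1, edgeR). Mean CPM was worked out again only with relative log expression scaling, with total counts and without 1 library at a time. It moved by less than 1 SD over the 15 libraries each time. Leaving out 1 of 15 libraries cannot move a mean that far, so those refits could not have shown otherwise. Signs of these uncalled log2 fold changes were not all steady. They were counted without limma-voom and 1 surrogate variable. Of 310 values under the other settings that were not refits without 1 library, 31 turned, in 20 of 45 results. The cause was not tested. Outside that count, Pgrmc1 turned from 0.104 to -0.00086 with 1 surrogate variable (knockout minus wild type in males).

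In the low-marker libraries alone, the sign turned to 0.019 for Nr3c1, -0.29 for Esr1, -0.19 for Pgrmc1 and -0.20 for Paqr8 (knockout minus wild type in females), -0.24 for Pgrmc1 and -0.10 for Paqr8 (knockout minus wild type in males), 0.049 for Paqr7 and -0.028 for Paqr8 (female minus male under the knockout label), 0.072 for Paqr8 (female minus male under the wild-type label) and -0.10 for Paqr8 (the difference between the label effects). After leaving out the 3 libraries above 1% of the other sex's transcripts, the sign turned to 0.17 for Nr3c1, -0.60 for Esr1, -0.13 for Esr2 and -0.084 for Paqr8 (knockout minus wild type in females), -0.25 for Esr1, -0.076 for Pgrmc1 and -0.35 for Paqr8 (female minus male under the knockout label), 0.28 for Esr1 and -0.048 for Paqr9 (female minus male under the wild-type label) and -0.53 for Esr1, -0.18 for Pgrmc1 and -0.30 for Paqr8 (the difference between the label effects). With marker level as a covariate, the sign turned to -0.12 for Esr1 (knockout minus wild type in females), -0.063 for Pgrmc1 and -0.15 for Paqr8 (knockout minus wild type in males) and 0.0033 for Nr3c1 (female minus male under the wild-type label). With DESeq2, the sign turned to -0.0062 for Nr3c2 (knockout minus wild type in females) and 0.013 for Nr3c1 (female minus male under the wild-type label). With relative log expression scaling, the sign turned to -0.0062 for Nr3c2 (knockout minus wild type in females) and 0.013 for Nr3c1 (female minus male under the wild-type label). With the replicate block, the sign turned to -0.035 for Paqr9 (knockout minus wild type in females). The block changed no call by adjusted p.

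Without 1 library at a time, 45 of 640 values turned, in 25 results. The ranges over these refits, as log2 fold changes, follow. For knockout minus wild type in females, they were -0.25 to 1.40 for Esr1, -0.13 to 0.71 for Esr2, -0.16 to 0.18 for Nr3c1, -0.056 to 0.074 for Nr3c2, -0.35 to 0.11 for Paqr7, -0.14 to 0.21 for Paqr9 and -0.15 to 0.49 for Pgrmc1. For knockout minus wild type in males, they were -0.43 to 0.73 for Esr1, -0.22 to 0.90 for Paqr8 and -0.055 to 0.24 for Pgrmc1. For female minus male under the knockout label, they were -0.25 to 0.77 for Esr1, -0.0058 to 0.089 for Nr3c2, -0.35 to 0.70 for Paqr8 and -0.076 to 0.53 for Pgrmc1. For female minus male under the wild-type label, they were -1.05 to 0.74 for Esr1, -0.77 to 0.070 for Esr2, -0.24 to 0.14 for Nr3c1, -0.63 to 0.53 for Paqr8, -0.10 to 0.25 for Paqr9, -0.028 to 0.35 for Pgrmc1 and -0.26 to 0.00027 for Pgrmc2. For the difference between the label effects, they were -0.36 to 1.43 for Esr1, -0.099 to 0.36 for Paqr7, -0.25 to 0.91 for Paqr8 and -0.25 to 0.40 for Pgrmc1. Esr2 fell under the filter in 7 of the 15 refits and in the low-marker libraries alone. Depth limits Esr2, with 128 reads in all, and the spread between marker classes limits Esr1 and Paqr8. The alternative for receptors under the filter was not run, since none was.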

Other observations

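Fkbp5, a cochaperone whose gene is a known target of glucocorticoids, differed widely between libraries of the same group. It was read at 7.27, 30.3, 16.5 and 5.78 CPM in females labelled knockout, against 6.80, 6.33 and 19.2 CPM in females labelled wild type. In males it was read at 13.2, 7.89, 4.50 and 3.74 CPM under the knockout label, against 16.9, 11.6, 4.29 and 9.62 CPM under the wild-type label. Nr3c1 stood between 228 and 419 CPM in the same libraries. Fkbp5 was picked after its values were seen.

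Ncoa7, a coactivator that binds oestrogen receptors, was the 1 of 20 listed coregulators, or 5%, that was above the low-marker range in every high-marker library, against 13.6% of all tested genes. It stood at 10.8 to 21.97 CPM in the high-marker libraries, against 2.26 to 4.81 CPM in the low-marker ones.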
